A study of Mus musculus with 61 samples.

Results

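Cadherin and protocadherin genes are described here, taken as all genes with a symbol made of Cdh and a number or beginning with Pcdh, named through the RefSeq accession of their probes. They are 58 of the 16358 genes that could be named in this way on the array. A total of 76 probes measured them, and for each gene the probe with the highest mean signal was used, a choice that mattered for the 14 genes with more than 1 probe. Whole brains of 6 male C57BL/6J mice aged 8 weeks, perfused with RNAlater, were cut into 1-mm fractions, each the pool of 200 sections of 5 µm, and RNA of each of the 61 fractions was hybridised to 1 one-colour Agilent array. Each mouse gave 1 series: S (9 fractions) and So (10) were cut in the sagittal plane from left to right, C (13) and Co (16) in the coronal plane from posterior to anterior, and H (6) and Ho (7) in the horizontal plane from dorsal to ventral, the letter o marking planes tilted slightly from the body axes. Fractions are numbered from the first one analysed, so that S1 to S9 are the fractions labelled 2 to 10. All 6 mice had the same strain, sex and age, none was treated beyond perfusion, and positions are compared, not conditions. The series differ in the plane and angle of cutting, and mostly in slide (2 of the 16 slides held arrays of more than 1 series). They also differ mostly in scan day, but H and Ho shared 1 day. C13 was scanned on that day, apart from C1 to C12, and S1 on the day of So. Each plane rests on 2 mice.

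Cadherins are membrane proteins that bind like molecules on a neighbouring cell in the presence of calcium. The classical types I and II anchor to the actin skeleton through catenins, whereas protocadherins lack the catenin-binding tail of the classical types and act in sorting, adhesion and self-recognition of neurites. Most protocadherins lie in 3 tandem clusters named alpha, beta and gamma, from which single neurons choose different sets of isoforms. In the brain the classical and delta-type members are known for marking regions, nuclei and layers, and the clustered ones for broad expression.

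Levels are given as log2 of the background-subtracted signal relative to the 75th percentile of the same array, so that a level of 0 is the signal at that percentile. Levels of different probes are not compared with each other, since probes differ in binding. The percentile itself lay between 739.7 and 1971 signal units, and 57.9% to 73.1% of the probes were well above background on the single arrays. Of the 58 genes, 44 were well above background on all 61 arrays and 13 on some of them. Pcdhb1 was above it on 0 arrays and was not tested, which left 57. Cdh9, Cdh10, Cdh18, Cdh19, Pcdh9, Pcdh11x and Pcdh19 were not matched through RefSeq accessions and were not analysed here. Markers of cell types with a known position were read beside the members, and their peaks were not all placed alike in both coronal series (Prox1 of dentate granule cells peaked in C8 and Co3). Gabra6 of cerebellar granule cells was highest in the posterior fractions C3 and Co5, and Tbx21 of olfactory bulb neurons in the anterior fractions C13 and Co15. In these bulk samples fewer cells of a type and less RNA per cell cannot be told apart.

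The first comparison asked which members varied with position. Fractions of both mice of a plane were paired in the way that the methods of the study describe. There the pairs are those most highly correlated over the probes, and anatomical order decides where several fractions qualify. Pairs chosen for similar values can have a smaller spread than fractions matched by position alone. There were 28 pairs, with 5 fractions left unpaired, and limma's moderated F test over the pairs was adjusted by the Benjamini-Hochberg method over all 36573 probes tested. It called 34 of the 57 members, against 61.3% of all probes. Within the planes, 32 members varied over the coronal pairs (47.1% of all probes did), 9 over the horizontal pairs (11.9%) and 7 over the sagittal pairs (11.1%). The median F of the members was 3.00, against 2.58 for all probes. The members were unequal in this. Outside the clusters 22 of 28 genes were called, with a median F of 5.46, and in the clusters 12 of 29, with a median F of 1.61. Among genes well above background on all arrays, the 20 outside the clusters had a median range over the 61 fractions of 2.26 (log2) and the 24 clustered ones a median range of 1.18. These shares describe the sets, and their difference was not tested. The F sets differences between the pairs against the spread between the 2 mice of a pair, and most clustered genes differed between mice. It also takes in differences between planes, which come from other mice and mostly from other slides and scan days. Pcdh1, Pcdhb3 and Pcdhb17 were called over the pairs but over none of the planes taken alone. Shares of all probes, here and below, belong to the main settings, and none is given under the alternatives. With the mouse as a block 45 members were called in place of 34. They were 22 of the 29 clustered and 23 of the 28 other genes, with median F of 4.30 and 8.62. With scan day as a block 48 were called, 25 clustered and 23 other genes. With fractions paired by their own number 23 were called, 7 clustered and 16 other genes, with median F of 1.46 and 2.62. Of the members described below, Cdh3, Cdh6, Cdh8, Cdh11, Cdh12, Pcdhb15 and Pcdhb17 then lost their call (adjusted p of 0.0718 to 0.471).

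**Figure D1:**
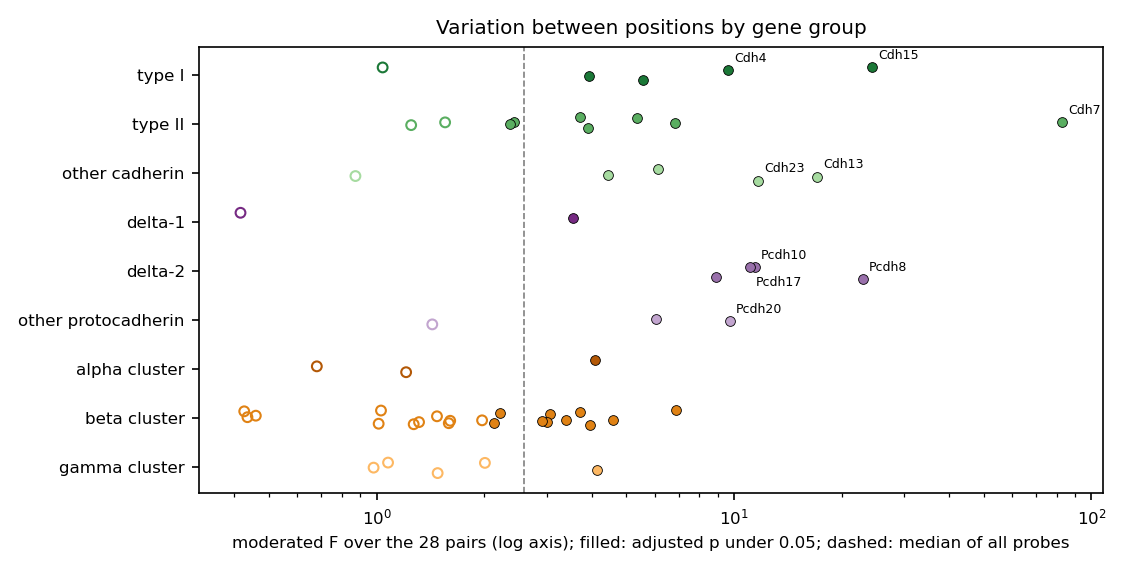
Each point is 1 of the 57 genes tested, placed by its moderated F over the 28 pairs (log axis) and by gene group; filled points passed an adjusted p of 0.05 and the dashed line is the median of all probes, 2.58. Cdh7 stands at an F of 82.5, the 4 delta-2 protocadherins tested lie right of the line, and the clustered genes lie on both sides of it.

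The 5 type I classical cadherins included 4 called genes, of which Cdh15 had the largest F (24.3, adjusted p = 3.75e-12 by limma). Cdh15 encodes M-cadherin, best known from muscle satellite cells and also from cerebellar granule cells. Its level in the C mouse was 0.21, 2.30, 2.17 and 2.34 in fractions C1 to C4, and in the Co mouse it was 1.21, 2.54, 2.37 and 2.14 in Co2 to Co5. In the next fractions it dropped to -0.45 in C5 and 0.14 in Co6. The 8 caudal fractions (pairs c1 to c4) were all higher than the 14 middle ones (c5 to c11). The means were 1.91 ± 0.80 (SD, n = 8 fractions of 2 mice) caudally and -0.79 ± 0.33 (SD, n = 14 fractions of the same mice) in the middle. Such an SD is the spread between positions and mice, not between replicates. The SE, here and below, treats fractions of 1 mouse as independent. The difference of 2.70 (SE 0.14, limma adjusted p = 9.22e-17), or 6.51-fold, was 2.68 in the C mouse and 2.72 in the Co mouse. The cerebellar markers moved along. The 3 granule cell markers and the 3 Purkinje cell markers were all higher caudally, by 3.65 to 6.19 and by 1.49 to 4.65, and over the 61 fractions the marker closest to Cdh15 was Car8 (r = 0.96, the highest of 51 markers, all on the same arrays). The summed level of the granule cell markers was 25.8 to 120.2 in the caudal and 2.26 to 28.3 in the middle fractions, in multiples of the 75th percentile, and the part of cell makeup in the Cdh15 difference was not tested.

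Cdh4, R-cadherin of the retina and forebrain, was highest at the other end of the coronal series. It lay at -0.73 and -0.61 in C12 and C13 and at -0.67 and -0.48 in Co14 and Co15, above each of the 14 middle fractions, which ranged from -2.13 to -1.53. The rostral excess (c12 and c13 against c5 to c11) was 1.14 (SE 0.11, limma adjusted p = 4.19e-10), 1.08 in the C mouse and 1.19 in the Co mouse. Cdh4 also rose from dorsal to ventral. The 4 ventral fractions (h5 and h6) spanned -1.30 to -0.97 and the 4 dorsal ones (h1 and h2) -2.44 to -1.93, a difference of 0.99 (SE 0.13, adjusted p = 3.21e-06 by limma). A second, dimmer probe of Cdh4 followed the first with r = 0.88 over the 61 fractions. The 3 olfactory bulb markers were higher in the same rostral fractions by 6.76 to 7.58, and Doc2g was the marker closest to Cdh4 (r = 0.77).

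Cdh1 (E-cadherin) and Cdh3 (P-cadherin), both known from epithelia, were high at both ends of the coronal series. Cdh1 reached its highest level of 0.09 in C1 and lay at -0.34 in Co1, whereas its lowest levels were -2.95 in C8 and -3.72 in Co10. Caudal fractions exceeded middle ones by 1.64 (SE 0.20, limma adjusted p = 2.44e-08) and rostral ones did by 1.03 (SE 0.25, adjusted p = 0.00134). Both comparisons use the same middle fractions. The rostral excess of Cdh1 was 0.62 (adjusted p = 0.151) with fractions paired by their own number. In the horizontal series the outermost fractions were the highest, with -1.07 in H1 and -1.03 in H6 against -3.26 in H4, and -1.33 in Ho1 and -1.15 in Ho7 against -3.02 in Ho5. Cdh3 was dimmer, well above background on 52 arrays, and differed by 1.87 (SE 0.32, adjusted p = 9.16e-06) caudally and by 2.01 (SE 0.40, adjusted p = 0.000148) rostrally. The rostral excess was 0.48 (adjusted p = 0.683) with fractions paired by their own number. Both differences of Cdh3 were smaller, 0.61 and 0.73, after normexp correction and quantile normalization, which compress dim probes. Ranges of the end and middle fractions overlapped for both genes. All 5 meningeal fibroblast markers (Dcn, Lum, Col1a1, Col1a2 and Igf2) were also higher at both ends, by 0.74 to 1.19 caudally and 0.61 to 1.25 rostrally. Their summed level was 17.4 to 43.6 in the caudal, 7.91 to 28.6 in the middle and 18.9 to 36.1 in the rostral fractions. The 3 astrocyte markers (Gfap, Aqp4 and Aldh1l1) were higher caudally as well, by 0.22 to 1.78, and 2 of them rostrally, with summed levels of 13.8 to 18.9 caudally, 7.99 to 12.5 in the middle and 10.2 to 13.3 rostrally. Over the 61 fractions the marker closest to Cdh1 was Gfap (r = 0.75) before Col1a2 (r = 0.71), and the markers closest to Cdh3 were Aqp4 (r = 0.59) and Gfap (r = 0.52). The part of these cell types in the results was not tested. Cdh2, the N-cadherin of neurons and glia, had a small range of 0.99 over the 61 fractions and was not called over the pairs (F = 1.04, adjusted p = 0.525 by limma, and 0.0184 with the mouse as a block), although it was 0.36 lower in caudal than in middle fractions (SE 0.09, adjusted p = 0.00181).

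Of the 9 type II cadherins, 7 were called, and Cdh7 had the largest F of all members, 82.5 (limma adjusted p = 1.24e-18). Type II cadherins are known for dividing the nervous system into adhesive domains, and Cdh7 for populations in the hindbrain and cerebellum. Its profile had 3 steps. It was highest in c2 to c4, at 0.26, 0.27 and 0.08 in C2 to C4 and at 0.39, 0.45 and 0.35 in Co3 to Co5. Its pair mean was -0.35 at c5 and between -0.89 and -0.69 from c6 to c11. It then fell to -2.57 and -3.04 in C12 and C13 and to -2.42 and -3.17 in Co14 and Co15. The rostral fractions thus lay lower by 2.04 (SE 0.06, limma adjusted p = 1.11e-20), a 4.12-fold difference without overlap, and the caudal ones lay higher by 0.89 (SE 0.05, adjusted p = 3.19e-16). Paired fractions of the 2 mice differed little, with an SD of 0.09. Across the sagittal series the 6 midline fractions (s4 to s6) of -0.55 to -0.32 were all above the 8 outer ones (s1, s2, s8 and s9) of -1.10 to -0.63, a difference of 0.40 (SE 0.06, adjusted p = 5.37e-06). With fractions paired by their own number the outer fractions differed by -0.36 (adjusted p = 0.34). The marker closest to Cdh7 was Calb1 (r = 0.87), itself lower in the rostral fractions by 1.87.

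Cdh8, a type II cadherin of cortical and limbic areas, was likewise low rostrally. Its levels were -2.12 and -0.66 in C12 and C13 and -1.02 and -1.65 in Co14 and Co15, below the range of -0.63 to 0.81 in the middle, and the deficit of 1.63 (SE 0.22, limma adjusted p = 4.72e-07) was 1.28 in the C mouse and 1.98 in the Co mouse. With fractions paired by their own number, which takes Co12 and Co13 as the rostral fractions of that mouse, the difference was -0.81 (adjusted p = 0.0643), and Cdh8 was not called over the pairs (F = 1.14, adjusted p = 0.471). Cdh11, which is also a bone and mesenchyme cadherin, was lower at both ends, by 0.75 (SE 0.07, adjusted p = 3.99e-10) caudally and 0.74 (SE 0.09, adjusted p = 1.48e-07) rostrally. Its rostral difference was -0.30 (adjusted p = 0.204) with fractions paired by their own number. The 3 probes of Cdh11 did not behave alike. The one with the next highest signal had r = -0.13 with the probe used and was not called (adjusted p = 0.188), with differences of the other sign, 0.20 caudally and 0.06 rostrally, and the third had r = 0.65 and was called. Cdh12 and Cdh6, a pair of further neuronal type II cadherins, were lower caudally by 1.04 (SE 0.20, adjusted p = 5.78e-05) and 1.01 (SE 0.18, adjusted p = 2.59e-05). They had r = 0.78 with each other. Cdh12 was in addition 0.83 lower rostrally (SE 0.26, adjusted p = 0.0097) and 1.20 lower ventrally (SE 0.32, adjusted p = 0.00844). With scan day as a block the rostral difference of Cdh12 was -0.50 (adjusted p = 0.0123). Leaving out C13 or Co14 ended the rostral call of Cdh12 (adjusted p of 0.0714 and 0.0625), leaving out H2 ended its ventral call (0.0688), and leaving out C12 the call of Cdh6 over the pairs (0.0545).

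Cdh5, VE-cadherin of endothelial junctions, was highest in the end fractions C1 (-0.96) and Co16 (-0.38) and in H6 (-1.14) and Ho7 (-1.10). The dorsal end fractions H1 (-1.17) and Ho1 (-1.18) were nearly as high. Cdh5 was 0.51 higher caudally (SE 0.08, limma adjusted p = 1.27e-06) and 0.56 higher rostrally (SE 0.10, adjusted p = 1.85e-05), with overlapping ranges. The rostral difference was 0.29 (adjusted p = 0.1) with fractions paired by their own number. The 5 other endothelial markers were also all higher caudally, by 0.21 to 0.38, and 2 of them, Cldn5 and Kdr, were higher rostrally. Their summed level was 21.1 to 24.6 in the caudal, 17.95 to 22.2 in the middle and 22.1 to 41.1 in the rostral fractions. Of all 946 pairs of members measured above background on every array, Cdh1 and Cdh5 had the most similar profiles (r = 0.87 over the 61 fractions), and the markers nearest to Cdh5 were Igf2 (r = 0.74) and Col1a2 (r = 0.69). A second, dimmer probe of Cdh5 was not called (adjusted p = 0.923) and had r = 0.54 with the first.

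**Figure D2:**
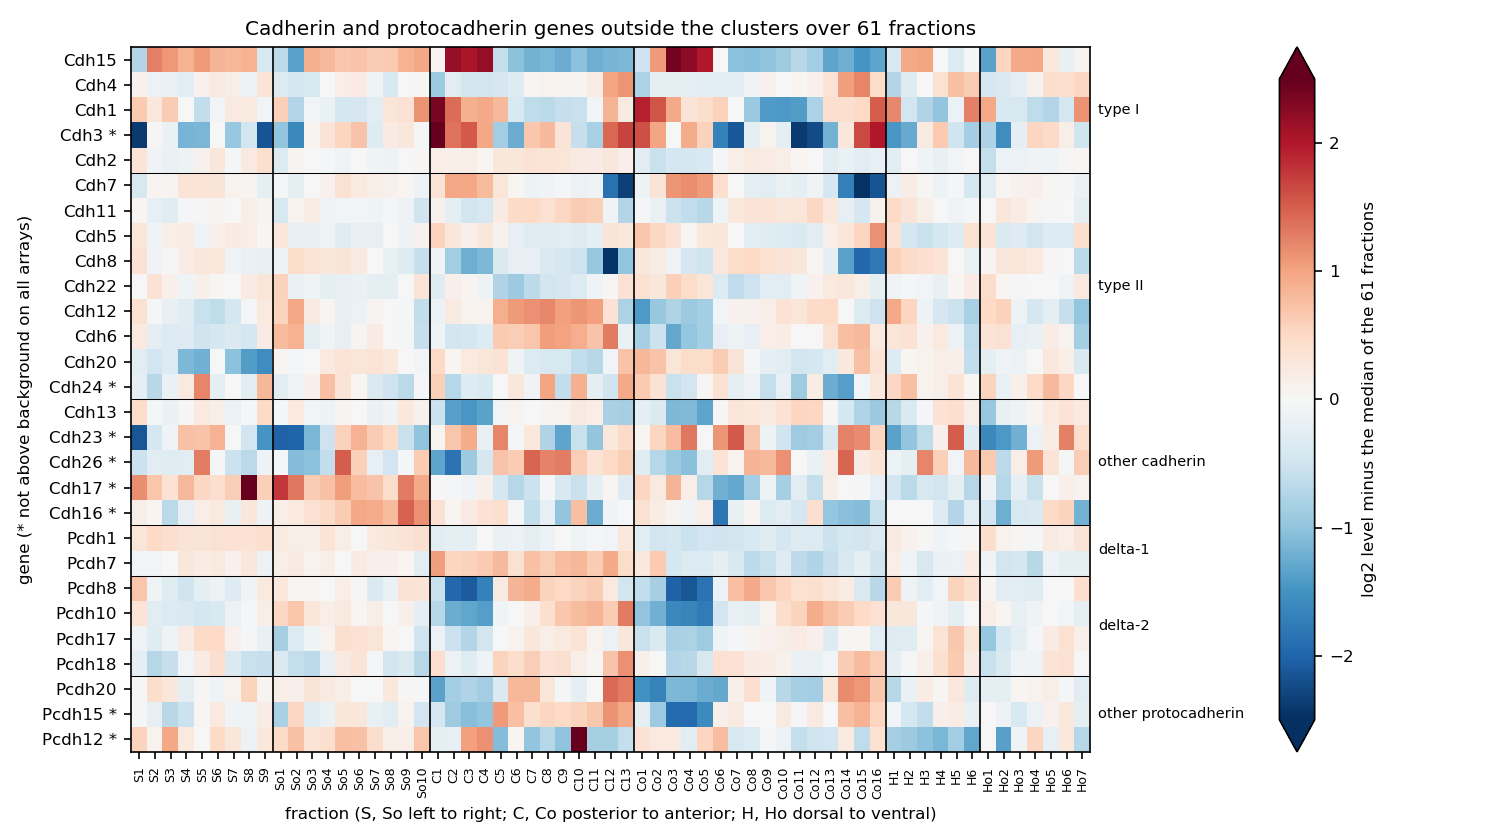
Levels of the 28 genes outside the clusters over the 61 fractions, as log2 difference from the median of each gene (colour, saturated at both ends of the scale); columns run left to right for S and So, posterior to anterior for C and Co and dorsal to ventral for H and Ho, and an asterisk marks genes not above background on all arrays. Cdh15 is high and Pcdh8 low in C2 to C4 and Co3 to Co5, and Cdh7 is low in the last coronal fractions.

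Of the 5 other cadherins 4 were called. Cdh13, a cadherin tethered by a lipid anchor and without a cytoplasmic tail, was lower in the caudal fractions (1.63 to 2.71) than in every middle fraction (3.01 to 3.61), by 1.27 (SE 0.08, limma adjusted p = 5.47e-15). The rostral fractions of 2.25 to 2.64 also lay below that range, by 0.91 (SE 0.10, adjusted p = 5.98e-09), or with -0.34 (adjusted p = 0.274) when fractions were paired by their own number. Its ventral fractions (3.25 to 3.50) lay above the dorsal ones (2.39 to 2.96) by 0.64 (SE 0.12, adjusted p = 0.000354). The marker nearest to it was Drd1 of striatal neurons (r = 0.82). Profiles of Cdh13 in the C and Co mice had r = 0.99 over 13 pairs, and those in H and Ho had r = 0.98 over 6 pairs.

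Cdh23, known as a tip-link protein of the hair cells of the inner ear, was highest in ventral and midline fractions. It was well above background on 53 arrays. Its level rose from -6.34 in H1 to -3.50 in H5 and was -5.33 in H6; in the Ho mouse it rose from -6.63 in Ho1 to -3.75 in Ho6 and was -4.58 in Ho7. The ventral excess was 1.97 (SE 0.26, limma adjusted p = 2.12e-06), 1.76 in the H and 2.17 in the Ho mouse, without overlap. In the sagittal series the 6 midline fractions lay within -4.44 to -4.14 and the outer ones at -7.15 to -5.45, so that the outer ones were lower by 1.89 (SE 0.20, adjusted p = 2.02e-08), by 1.90 in S and 1.87 in So. Only 3 of the 8 outer arrays were well above background, so the size of this difference is uncertain. Along the coronal series the peaks were C5 (-3.80) and Co7 (-3.49), and rostral fractions were 0.87 higher than middle ones (SE 0.21, adjusted p = 0.00104). The ventral, outer and rostral differences shrank to 0.61, -0.46 and 0.28 after normexp and quantile normalization but stayed past the threshold. The rostral one was not stable otherwise: it was -0.10 (adjusted p = 0.912) with fractions paired by their own number and 0.30 (0.758) with slide as a block. The marker nearest to it was Slc6a4 of raphe neurons (r = 0.68), and the 3 hypothalamic markers, which were 6.64 to 7.31 higher ventrally, peaked in other coronal fractions (C8 to C9 and Co9 to Co10). The second probe of Cdh23 was above background on 1 array and could not check these values.

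Cdh26 was above background on 36 arrays. All 14 middle coronal arrays but 1 of the 8 caudal ones exceeded it, and the caudal level was 1.60 lower (SE 0.18, limma adjusted p = 1.11e-08), without overlap. Since 7 of the 8 caudal arrays were not above background, the size is uncertain, and after normexp and quantile normalization the difference was -0.26. In the sagittal plane it was above background on 2 of 6 midline arrays and on 0 of 8 outer arrays, so that most values on both sides lay in the background and no fold is given. The log2 difference of -0.87 (adjusted p = 0.00505) was -0.57 (0.0569) without So5 and -0.11 (0.177) after normexp and quantile normalization. Cdh17 passed over the pairs (F = 4.45, adjusted p = 0.00023) but was well above background on 1 array alone, S8, and its F was 1.92 (adjusted p = 0.0767) with the mouse as a block, so that no position can be given. Cdh16 was above background on 1 array.

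The delta protocadherins carry conserved motifs in their tails and are known from axon growth and the sorting of neurons. All 4 delta-2 genes that were matched (Pcdh8, Pcdh10, Pcdh17 and Pcdh18) were called. Pcdh8, which is induced by neuronal activity and acts at synapses, showed the largest caudal deficit. Its level was -0.91, -1.04 and -0.64 in C2 to C4 and -0.98, -1.09 and -0.80 in Co3 to Co5, while the middle fractions held 0.90 to 2.00 with peaks at C7 (1.98) and Co8 (2.00). The most posterior paired fractions were less low, at 0.49 in C1 and 0.22 in Co2. The caudal mean was -0.60 ± 0.61 (SD, n = 8 fractions of 2 mice) and the middle mean 1.60 ± 0.29 (SD, n = 14 fractions of the same mice). The caudal deficit of 2.20 (SE 0.10, limma adjusted p = 4.59e-18), or 4.59-fold, was 2.18 in C and 2.22 in Co. Rostrally Pcdh8 was 0.66 lower (SE 0.13, adjusted p = 8.6e-05), or differed by -0.28 (adjusted p = 0.513) with fractions paired by their own number. The nearest marker was Tbr1 of cortical neurons (r = 0.86).

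Pcdh10, a delta-2 member known from striatal and olfactory axon pathways, was also low caudally, at -1.88 to -0.84 against -0.60 to 0.79 in the middle, a difference of 1.63 (SE 0.12, limma adjusted p = 3.14e-13) without overlap. It rose through the middle of the series, from -0.21 in C5 to 0.72 in C11 and from -0.60 in Co6 to 0.79 in Co12. Beyond that the mice parted, with 0.50 and 1.18 in C12 and C13 and 0.50 and 0.36 in Co14 and Co15. C13 shared its slide and scan day with H1 and H2, not with C1 to C12, and the part of this was not tested. The rostral difference of 0.49 (SE 0.15, adjusted p = 0.00947) was 0.28 without C13 (adjusted p = 0.203). Over the 61 fractions the pair had r = 0.75, and Cdh15 was the member least like Pcdh10 (r = -0.76) and Pcdh8 (r = -0.74). Pcdh17, known from corticobasal ganglia circuits, and Pcdh18 had a midline and ventral layout. Pcdh17 was 0.57 lower in outer than in midline fractions (SE 0.08, adjusted p = 1.4e-06) and 0.70 higher ventrally than dorsally (SE 0.10, adjusted p = 6.27e-06), both without overlap, and it was 0.71 lower caudally (SE 0.06, adjusted p = 3.95e-11). Pcdh18 was 0.72 lower in the outer fractions (SE 0.11, adjusted p = 7.25e-06) and 0.50 higher ventrally (SE 0.14, adjusted p = 0.015). After normexp and quantile normalization these differences were -0.39 and 0.27. It lost the ventral call when H5, H6 or Ho2 was left out (adjusted p of 0.0606 to 0.0874). With narrower positions its ventral difference was 0.39 (limma adjusted p = 0.286). Pcdh18 was highest at the rostral end, with -2.20 to -1.70, above all middle fractions (0.58, SE 0.11, adjusted p = 0.000112). This rostral difference was 0.17 (limma adjusted p = 0.591) with fractions paired by their own number and 0.37 (0.211) with slide as a block.

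**Figure D3:**
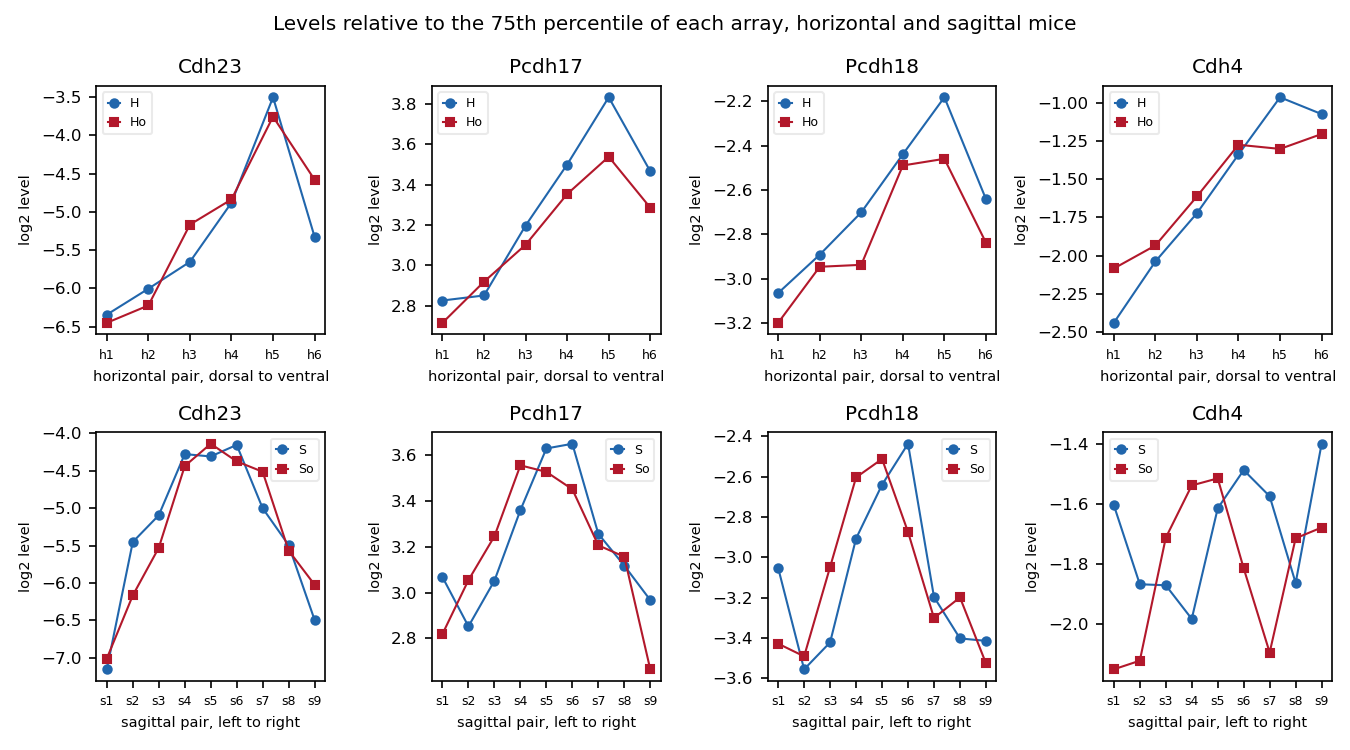
Levels (log2, relative to the 75th percentile of each array) of Cdh23, Pcdh17, Pcdh18 and Cdh4 over the 6 horizontal pairs from dorsal to ventral (top) and the 9 sagittal pairs from left to right (bottom), with 1 line for each mouse. Cdh23, Pcdh17 and Pcdh18 peak at h5 and near the midline in both mice, and Cdh4 rises from dorsal to ventral in H and Ho.

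Promoters are shown for the 2 caudally high genes with the largest F, Cdh7 and Cdh15, and for Pcdh8 and Pcdh10, the 2 delta-2 genes with the largest caudal deficit, since these genes move together or against each other. The sequences are those of RefSeq for GRCm38.p6, 300 bases each, most of them upstream of the start and the last few downstream of it. Capitals mark matches on either strand to 4 motifs, of which none contains another: the TATA box TATAAA, the CCAAT box with the letters CCAAT, the GC box GGGCGG and the E-box CAGCTG. Cdh7 has 3 starts in the table and the most upstream is given (chr1:109982650-109982949, plus strand); Cdh15 is at chr8:122848124-122848423 (plus), Pcdh8 at chr14:79771263-79771562 (minus) and Pcdh10 at chr3:45378148-45378447 (plus).
Cdh7: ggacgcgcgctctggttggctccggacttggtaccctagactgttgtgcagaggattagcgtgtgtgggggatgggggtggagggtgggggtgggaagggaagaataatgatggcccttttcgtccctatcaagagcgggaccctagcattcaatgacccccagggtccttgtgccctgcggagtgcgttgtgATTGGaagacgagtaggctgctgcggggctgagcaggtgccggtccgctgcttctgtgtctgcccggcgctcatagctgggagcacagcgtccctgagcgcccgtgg
Cdh15: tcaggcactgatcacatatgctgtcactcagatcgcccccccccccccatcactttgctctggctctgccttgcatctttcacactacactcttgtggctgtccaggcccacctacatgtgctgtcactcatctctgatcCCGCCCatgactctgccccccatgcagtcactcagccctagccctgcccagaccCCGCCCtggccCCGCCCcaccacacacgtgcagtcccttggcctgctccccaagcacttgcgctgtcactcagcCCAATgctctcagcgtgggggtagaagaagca
Pcdh8: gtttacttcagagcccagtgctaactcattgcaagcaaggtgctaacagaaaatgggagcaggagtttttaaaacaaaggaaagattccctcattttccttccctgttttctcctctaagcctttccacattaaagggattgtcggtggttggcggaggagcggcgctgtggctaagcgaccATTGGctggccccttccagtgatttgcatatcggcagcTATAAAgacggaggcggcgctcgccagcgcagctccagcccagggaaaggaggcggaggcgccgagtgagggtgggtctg
Pcdh10: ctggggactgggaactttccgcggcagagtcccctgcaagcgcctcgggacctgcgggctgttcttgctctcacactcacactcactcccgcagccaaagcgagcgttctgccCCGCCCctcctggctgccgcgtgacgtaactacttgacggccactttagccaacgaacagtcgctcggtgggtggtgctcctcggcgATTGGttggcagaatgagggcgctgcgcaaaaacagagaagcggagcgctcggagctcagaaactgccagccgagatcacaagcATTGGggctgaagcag

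Cdh15 held 3 GGGCGG matches and 7 CpG dinucleotides, Cdh7 no GGGCGG and 18 CpG, and Pcdh10 had 24 CpG with 2 CCAAT matches. Pcdh8 was the one of the 4 with TATAAA. None of the 4 held CAGCTG. Over all 32851 promoters of this length in the table, TATAAA was found in 13.6%, CCAAT in 37.4%, GGGCGG in 35.7% and CAGCTG in 16.3%, and the median number of CpG was 7. Member promoters were counted outside chromosome 18 only, which leaves out all clustered genes, Cdh2, Pcdh1 and Pcdh12. Of the 19 such promoters of 17 genes in the table, 12 had CCAAT, 8 GGGCGG, 2 TATAAA and 2 CAGCTG. These matches describe the letters of the windows, no more.

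The 2 delta-1 genes varied less. Pcdh1 was called over the pairs (F = 3.54, adjusted p = 0.00147 by limma) but over none of the 3 planes taken alone, and it was not called with the mouse as a block (F = 0.97, adjusted p = 0.574). Pcdh7 had the smallest F of all members above background on every array, 0.42. Of the other protocadherins outside the clusters, Pcdh20 was the most anterior. It lay at 2.95 and 2.81 in C12 and C13 and at 2.70 and 2.61 in Co14 and Co15, above the whole middle range of 0.24 to 2.36, with an excess of 1.38 (SE 0.16, limma adjusted p = 3.04e-08). It was 0.70 (adjusted p = 0.109) with fractions paired by their own number. A second rise was found at c6 and c7 (pair means of 2.00 and 2.14), and the caudal fractions were 0.99 lower than the middle ones (SE 0.13, adjusted p = 8.11e-08). Pcdh15, another protein of the tip link, was 1.59 lower caudally (SE 0.15, adjusted p = 3.04e-10), without overlap, and was above background on 6 of the 8 caudal and all 14 middle arrays. After normexp and quantile normalization the difference was -0.51. Pcdh12, an endothelial protocadherin, was above background on 2 arrays only and was not called (F = 1.43, adjusted p = 0.221).

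**Figure D4:**
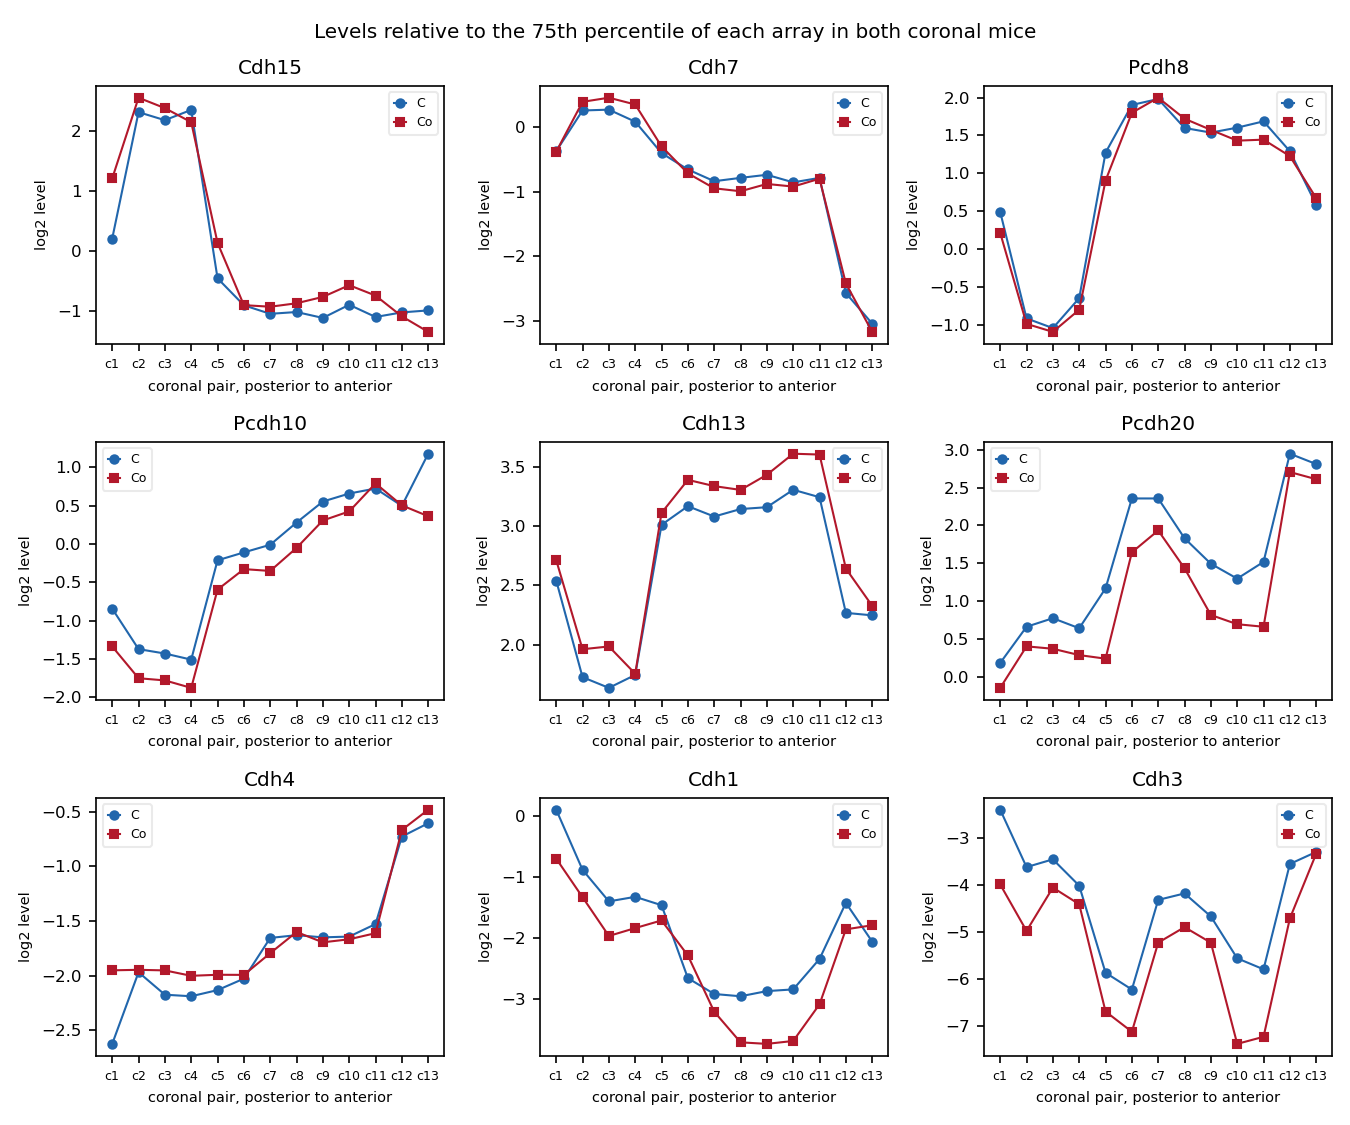
Levels (log2, relative to the 75th percentile of each array) of 9 genes over the 13 coronal pairs from posterior to anterior, with 1 line for each mouse. Cdh15 and Cdh7 are highest at c2 to c4, where Pcdh8, Pcdh10 and Cdh13 are lowest; Pcdh20 and Cdh4 are highest at c12 and c13, where Cdh7 is lowest.

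The clustered genes comprised 3 alpha, 22 beta and 5 gamma genes. They are neighbours on chromosome 18, where with Cdh2, Pcdh1 and Pcdh12 a total of 33 of the members lie. Isoforms of the alpha cluster, and those of the gamma cluster, share their last exons, and the files do not say whether a probe lies in a shared exon, so that a gene of these clusters stands for its probe. Of the alpha genes only Pcdha6 was called over the pairs (F = 4.09, limma adjusted p = 0.000471). It was 0.45 higher in the outer than in the midline fractions (SE 0.10, adjusted p = 0.00154) and 0.55 lower caudally (SE 0.08, adjusted p = 1.95e-06). Ventrally it was 0.49 lower (SE 0.13, adjusted p = 0.0112, and 0.0615 without H2). Its second probe was not called (adjusted p = 0.684) and had r = 0.08 with the first. Of the gamma genes Pcdhga7 was called (F = 4.13, adjusted p = 0.000428), with small differences: 0.25 higher in the outer fractions (SE 0.06, adjusted p = 0.0019) and 0.19 lower caudally (SE 0.05, adjusted p = 0.000989). The first was not called after normexp and quantile normalization (adjusted p = 0.159), and the second was 0.03 with slide as a block (adjusted p = 0.931) and -0.31 with arrays scaled to their median. Of its 3 further probes 1 followed the first closely (r = 0.97) and the others did not (r = 0.38 and -0.25).

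In the beta cluster 10 of 21 tested genes were called. The largest F was that of Pcdhb7 (6.88, limma adjusted p = 4.03e-06), which was 0.59 higher rostrally (SE 0.08, adjusted p = 6.14e-07) and 0.39 lower caudally (SE 0.06, adjusted p = 6.68e-06). Pcdhb4 had the largest rostral excess of the cluster, 1.01 (SE 0.14, adjusted p = 6.42e-07). It lay at -1.83 and -1.64 in C12 and C13 and -1.37 and -1.21 in Co14 and Co15, all above the middle range of -2.84 to -2.22. In all 7 beta genes were higher rostrally and 1 lower (18.5% and 20.4% of all probes were), 3 were higher and 6 lower caudally (31.9% and 20.8%), and 4 were lower ventrally (5.81%). Pcdhb22 was higher in caudal than in middle fractions (0.33, SE 0.06, adjusted p = 2.44e-05). Its highest coronal pair, however, was c13 at the rostral end (-0.98). Outer fractions were lower than midline ones by 0.34 (SE 0.07, adjusted p = 0.000974). The caudal excess was 0.22 with arrays scaled to their median or in the authors' table, and 0.21 after normexp and quantile normalization. Pcdhb12 was 0.52 lower caudally (SE 0.07, adjusted p = 4.7e-07) and 0.29 higher in outer fractions (SE 0.09, adjusted p = 0.0176). Leaving out S4, S5, S6, So3 or So9 ended that outer call (adjusted p of 0.0564 to 0.0992). Pcdhb15 and Pcdhb17 were 0.44 (SE 0.09, adjusted p = 0.00064) and 0.37 (SE 0.10, adjusted p = 0.0127) lower ventrally. Without H2, H5 or Ho7 the ventral call of Pcdhb17 was lost (0.0568 to 0.0701). The call of Pcdhb15 over the pairs (adjusted p = 0.0324) was lost when any of 9 single fractions (S9, Co3, Co4, Co5, H2, Ho2, Ho3, Ho6 and Ho7) was left out (0.0514 to 0.0695), and under scaling to the median (0.055) or with the authors' table (0.0535). The second probes of Pcdhb15 (0.325) and Pcdhb17 (0.958) were not called. The ventral difference of Pcdhb21 (-0.37, adjusted p = 0.0463) missed the threshold on leaving out any 1 of 39 fractions (0.0502 to 0.192). Over the 61 fractions, the 171 pairs of beta genes above background on all arrays had a median r of 0.28, and the 190 pairs of genes outside the clusters a median r of -0.001; Pcdhb5 and Pcdhb6 were the most similar beta genes (r = 0.84). These correlations share arrays and mice and carry no test.

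Along the whole coronal axis, 13 members were higher and 22 lower in caudal than in middle fractions (31.9% and 20.8% of all probes), and 18 were higher and 8 lower in rostral than in middle fractions (18.5% and 20.4%). With the mouse as a block these were 16 and 28 caudally and 24 and 12 rostrally. The median caudal difference of the 57 members was -0.14, against 0.14 for all probes, and the rostral one 0.09 against 0.02. The caudal median of all probes was 0.03 when arrays were scaled to their median instead, and the members then split into 10 higher and 29 lower. The 4 delta-2 genes were all lower caudally, and 2 of them were higher and 1 lower rostrally. With the slide entered as a fixed block, which overlaps with position since neighbouring fractions share slides, 11 members instead of 35 were called caudally and 12 instead of 26 rostrally. Of the 21 caudal differences given above, 12 then missed the threshold (adjusted p of 0.0541 to 0.931), although 11 of the 12 kept their direction and a size within 1.5 times of the one given. Those of Cdh3, Cdh7, Cdh11, Cdh13, Cdh15, Pcdh8, Pcdh10, Pcdh15 and Pcdh17 passed it. Of the 16 rostral ones 8 missed it (0.0723 to 0.758), 5 of them with a size within 1.5 times, and those of Cdh4, Cdh7, Cdh8, Cdh11, Cdh13, Pcdh20, Pcdhb4 and Pcdhb7 passed. With fractions paired by their own number 6 members were higher and 1 lower rostrally. Of the 16 rostral differences 11 then missed the threshold (adjusted p of 0.0643 to 0.912), 0 of them with a size within 1.5 times. Those that passed were Cdh4 (0.71), Cdh7 (-1.21), Pcdh10 (0.81), Pcdhb4 (0.57) and Pcdhb7 (0.49).

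**Figure D5:**
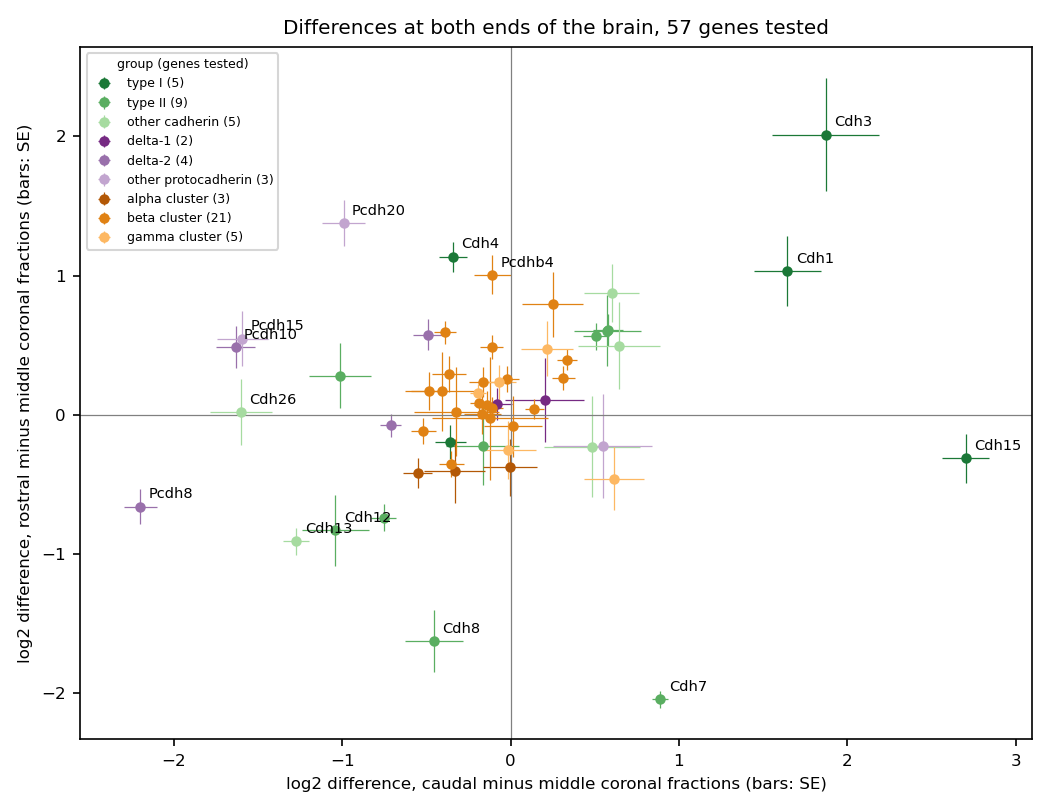
Each point is 1 of 57 genes, with its log2 difference of caudal minus middle coronal fractions (horizontal) and of rostral minus middle fractions (vertical), bars giving the SE of limma's fit and colour the gene group; both differences use the same middle fractions. Cdh15, Cdh3 and Cdh1 lie far right, Pcdh8 far left and Cdh7 at the bottom, and the clustered genes gather near the centre.

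Between ventral and dorsal fractions 5 members were higher and 7 lower (8.47% and 5.81% of all probes). The 5 were Cdh4, Cdh13, Cdh23, Pcdh17 and Pcdh18, all outside the clusters, and 5 of the 7 lower ones were clustered genes, the others being Cdh11 and Cdh12. The 4 ventral and 4 dorsal arrays came from 2 mice and were scanned on the same day. All 12 had groups without overlap, but they were picked by their calls on these same arrays. The share of all probes without overlap was not counted. With the mouse as a block, since fractions of a series come from 1 animal, 24 members were called, 6 higher and 18 lower. The shares of all probes above belong to the fit without this block. Without H2 the count was 6 (5 higher and 1 lower) and without H5 it was 7 (4 higher and 3 lower). With the slide as a block only the ventral excess of Cdh23 and Pcdh17 was called. The other 9 ventral differences given above then missed the threshold (limma adjusted p of 0.0692 to 0.35). All 9 kept their direction and a size within 1.5 times of the one given. Pairing by own number left 5 members higher and 0 lower. It ended the calls of 6 of the 11 ventral differences given above, Cdh11, Cdh12, Pcdha6, Pcdhb15, Pcdhb17 and Pcdhb21 (adjusted p of 0.056 to 0.613). Of these, 4 kept a size within 1.5 times of the one given. Cdh11 (-0.42, adjusted p = 0.0142) lost its call without H1, H2, H5 or Ho7 (0.0548 to 0.0811). Narrower positions ended the ventral calls of Pcdh18 (0.39, limma adjusted p = 0.286), Pcdha6 (-0.56, 0.0624) and Pcdhb21 (-0.42, 0.159).

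Between outer and midline sagittal fractions 4 members were higher and 7 lower (9.01% and 10.6% of all probes); with the mouse as a block 18 were called, 11 higher and 7 lower, and with arrays scaled to their median 9 were higher and 6 lower. Cdh23, Pcdh18 and Pcdh17 were lower in the outer fractions without overlap. Pairing by own number ended 5 of the 11 calls, those of Cdh7, Cdh15, Pcdh8, Pcdhb12 and Pcdhga7 (adjusted p of 0.0846 to 0.523). Of these, 4 kept a size within 1.5 times of the one given, and the difference of Cdh15 was -0.76. Narrower positions ended the outer calls of Pcdh8 (0.44, limma adjusted p = 0.148), Pcdhb12 (0.37, 0.0912) and Pcdhga7 (0.27, 0.053). Cdh15 (-0.50, adjusted p = 0.0317) and Pcdh8 (0.36, adjusted p = 0.031) had overlapping groups. Each was lost on leaving out any of 7 fractions: S4, S5, S6, S9, So2, So3 or So9 for Cdh15 (adjusted p of 0.0524 to 0.132, and a difference of -0.33 without S9, but -1.26 with narrower positions, adjusted p = 0.00124), and S1, S4, S5, So3, So7, So9 or So10 for Pcdh8 (0.0513 to 0.192). Between left (s1 to s4) and right (s6 to s9) fractions, 0 members differed in limma's test (0.041% of all probes were higher and 0.112% lower on the left), and 1 did when So9 was left out.

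The 2 mice of a plane differed as well. In a model with the 28 pairs, 47 of 57 members differed between the mice of at least 1 plane by limma's F test, against 63.1% of all probes. They were 27 of the 29 clustered and 20 of the 28 other genes tested. Co differed from C in 39 members, 13 of them higher in Co (53.4% of all probes differed). So differed from S in 21, of which 13 were higher in So (29.9%), and Ho from H in 2 (5.52%). With slide as a random block 24 members differed between the mice, in place of 47. Pcdh7 was 1.05 lower in Co than in C (adjusted p = 1.83e-12), Pcdhb9 0.92 lower (adjusted p = 1.78e-11) and Pcdhb8 0.73 lower (adjusted p = 1.54e-12), while in So Pcdhb9 and Pcdhb8 were 0.51 (adjusted p = 4.21e-05) and 0.49 (adjusted p = 6.24e-07) higher than in S. H and Ho were scanned on 1 day, which C13 shared, and C and Co on different days. The scan day of So was shared by S1 but by none of S2 to S9. For the coronal and the sagittal mice, mouse, cutting angle and scan day thus cannot be told apart. The 5 members with the smallest F over the pairs, Pcdh7, Pcdhb18, Pcdhb9, Pcdhb5 and Pcdha9 (F of 0.42 to 0.68), all differed between the C and Co mice. A second, much dimmer probe of Pcdhb5 was called over the pairs (adjusted p = 0.00169), with a caudal difference of -0.94 against -0.17. With the mouse as a block Pcdh7, Pcdhb9 and Pcdhb5 were called over the pairs (adjusted p of 0.0434, 0.0195 and 0.00963).

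Of 32 listed partner genes (catenins, flamingo and fat cadherins, calsyntenins, regulators of the clusters and signalling partners), 25 were measured and 19 varied over the pairs (61.3% of all probes did). In caudal fractions 10 were higher and 11 lower (31.9% and 20.8% of all probes were), and in rostral fractions 6 were higher and 10 lower (18.5% and 20.4%). The kinase gene Ptk2b, whose product binds clustered protocadherins, was 5.25 lower caudally (limma adjusted p = 3.67e-28). Celsr1, a flamingo cadherin of planar polarity, was 1.66 lower caudally (adjusted p = 6.52e-16), as was Wasf1 of the actin-nucleating WAVE complex, by 1.41 (adjusted p = 1.13e-14). Ctnna3, an alpha catenin, was 1.94 higher caudally (adjusted p = 2.68e-12) and 1.38 lower rostrally (adjusted p = 8.32e-07). Cdhr1, a photoreceptor and olfactory bulb cadherin, was 5.36 higher rostrally (adjusted p = 4.27e-12), and Reln, which encodes the secreted guidance protein reelin, was higher at both ends, by 1.13 caudally (adjusted p = 5.01e-14) and 1.54 rostrally (adjusted p = 3.78e-14).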

How the data were processed

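RNA of 61 fractions of 6 mouse brains was labelled with Cy3 and hybridised to one-colour arrays. The authors scanned them and deposited, for each array, intensity values made with Agilent Feature Extraction (version 9.1 per the submitters' processing notes), in which the processed signal is background-subtracted and not normalized between arrays. The authors also deposited a table of intensity values divided by 1 constant for each array, with column medians of 1.76 to 1.98, used as an alternative.

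Spots of a probe were averaged, and log2 of the processed signal minus the 75th percentile of the array gave the level of 41174 probes. Probes well above background on at least 1 array (36573) were tested with limma 3.58.1 over the 28 pairs, with Benjamini-Hochberg adjustment and a threshold of 0.05. Fractions of a pair come from 2 mice, so the spread includes mouse and scan day, and fractions of 1 series come from 1 animal. The number of arrays limits the precision. Labels name the series but no animal, so each series was taken as 1 mouse, from the paper's statement of 1 brain per series. Fractions of the same mouse deviated together (median r of 0.278 over 129 combinations, 115 of them over 0.1). For this reason the mouse was tried as a block. Other alternatives were scaling, background correction, filters on dim probes, the pairing, slide and scan day as blocks, narrower positions, another probe of a gene and leaving out each of 56 arrays. On simulated data with 200 changed probes of 36573, the test over the pairs recovered 68.5% with 8 false calls and that of the caudal difference 75% with 5. The simulated residuals were independent between arrays, without deviations shared within a mouse, slide or scan day. Far fewer probes were changed than were called in the real data. These rates therefore check the code and do not give the error rate of the calls above.

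Members, gene lists and tests were chosen with earlier results of these data known. Described in full were the 4 members of largest F in each group among those called, the 10 largest called differences of each contrast, the 5 smallest F, Cdh5 and Cdh23. Cdh2, Pcdh12 and Cdh16 and some smaller differences of other members were added after their values were seen. Promoter sequences are from RefSeq (GRCm38.p6).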

Additional observations from a re-analysis of the deposited data

Results flagged for a closer look

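In 144 profiles of a member in 1 series, the fraction farthest from the others was compared with the range of that series by Dixon's ratio, and 12 stood apart. Chance flags about 1 in 20 series, and fractions are positions along the brain, not replicates. In Ho1, the most dorsal fraction, Cdh13 (ratio 0.586, level 2.12 against a series median of 3.14) and Pcdhb7 (ratio 0.673, -1.10 against -0.75) were low. In Ho7, the most ventral one, Cdh8 was low (0.688, -0.34 against 0.38). In S1, Pcdha9 (0.571, 3.79 against 2.92) and Pcdhb17 (0.571, -0.14 against -0.49) were high. S1 shared its slide and scan day with So1 and So2, whereas S2 to S9 were scanned on another day. The levels in So1 and So2 were 3.41 and 3.53 for Pcdha9 and -0.21 and 0.07 for Pcdhb17, and the part of slide and scan day was not tested. In So10, Pcdh7 (0.533, -4.89 against -4.50) and Pcdhb5 (0.543, -0.55 against -0.28) were low. In S8, Pcdhb15 (0.527, -1.71 against -1.93) was high, and so was Cdh17 (0.824, -3.55 against -7.87), which was above background on that array alone. Cdh2 was low in So1 (0.518, -0.58 against -0.24) and low in Ho1 (0.702, -0.83 against -0.35). Cdh26 was high in S5 (0.678, -5.08 against -6.65).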

How the results depend on the processing

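Over 95 values of 36 members, under 13 alternatives and with each of 56 arrays left out, 6234 of 6438 alternative values kept direction and side of the threshold, 182 lost the call, 16 gained one and 6 changed sign. These 6 were the rostral difference of Cdh23 with fractions paired by their own number (-0.10), the rostral (-0.062) and outer (0.018) differences of its other, dim probe, the caudal (0.20) and rostral (0.058) differences of the next probe of Cdh11, and the caudal difference of Pcdhga7 with slide as a fixed block (0.028). Leaving out 1 array gave 32 to 37 members varying over the pairs, 33 to 36 differing caudally, 21 to 29 rostrally, 6 to 15 ventrally, 8 to 12 between outer and midline, 0 to 1 between left and right, and 42 to 47 between mice. With slide as a fixed block 32 members varied over the pairs, 26 of them among the 34 called without it. Over the pairs it ended the calls of Cdh6, Cdh17, Pcdh1, Pcdhb12, Pcdhb15 and Pcdhb17 (limma adjusted p of 0.0734 to 0.39). It added that of Pcdhb9 (0.0422). The counts of the contrasts were then 11 caudally, 12 rostrally, 2 ventrally, 21 for outer and 4 for left fractions. Pairing by own number, counted from the first fraction analysed, gave 7 rostrally, 5 ventrally and 6 for outer fractions; in the sagittal plane it departs from the labels' numbers, which the pairs used here match. With the mouse as a replicate block, 24 members differed ventrally and 18 between outer and midline; it ended the calls of Cdh17 and Pcdh1 and added those of Cdh2, Pcdh7, Pcdhb5 and Pcdhb9 over the pairs, and changed no other call of a named value. Scan day as a block gave 25, 20 and 1 for ventral, outer and left fractions, and slide as a random block gave 24 for the mice. The cause of these shifts was not tested. The mice could not be compared with mouse, slide or scan day as fixed blocks. Signal over background limits Cdh3, Cdh17, Cdh23, Cdh26 and Pcdh15, whose differences rest partly on dim arrays.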
